A study of Mus with 9 samples.

Results

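The translation initiation factors (Eif genes) and elongation factors (Eef genes) were examined in the hippocampus of SAMR1 and SAMP8 mice. Every probe set whose gene symbol begins with Eif and a number from 1 to 6, or with Eef and 1 or 2, was taken, which gave 64 probe sets out of 22206 on the Clariom S Mouse array. They named 64 gene symbols. By complex there were 5 Eif1, 15 Eif2, 14 Eif3, 16 Eif4, 5 Eif5 and Eif6, 6 Eef1 and 3 Eef2 probe sets. Of these, 52 were counted as parts of the translation machinery and 12 as regulators. The 12 are mainly kinases, binding proteins or enzymes, and include Eif1ad and Eef1e1, which were taken by symbol.

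SAMP8 is an inbred mouse line with accelerated senescence and early learning and memory decline, and SAMR1 is the senescence-resistant line used as its control. The 3 groups were male SAMR1 given vehicle, male SAMP8 given vehicle, and male SAMP8 given trigonelline (TG), a plant alkaloid found in coffee and fenugreek, by mouth at 5 mg/kg per day. Administration lasted 30 days and went on through 8 days of water maze testing. The mice used were 16 weeks old by the methods, which do not give the age at which the tissue was taken. The vehicle was saline by the labels and water by the methods, and no SAMR1 group received TG. The lines differ in genetic background, so strain and senescence cannot be told apart. Each group had 3 arrays by the sample records, although the series text speaks of duplicate RNA samples.

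The values are the authors' averages of each group on the log2 scale, with no SD and no n beside them. The authors' own tests were not used, and no difference was tested here against the spread between mice. A difference is given as log2 signal, and a probe set is counted as higher or lower when its averages differed by more than 1.5-fold, which is 0.585 on the log2 scale. RNA was taken from whole tissue, so fewer cells of a type and less RNA per cell cannot be told apart. Over all probe sets, the group averages ran from 2.39 to 19.93 and their medians were 6.09 for SAMR1, 6.04 for SAMP8 and 6.07 after TG. Of the translation factors, 43 (67.2%) lay among the 25% of probe sets with the highest mean signal and 1 among the 25% with the lowest.

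In initiation, eIF2 carries the initiator tRNA to the small ribosomal subunit, eIF3 holds that complex together, and the eIF4 factors bring in the capped mRNA. The eIF2B complex reloads eIF2 with GTP, a step that stress kinases block by phosphorylating eIF2. In elongation, eEF1A delivers each aminoacyl-tRNA, the eEF1B subunits reload eEF1A with GTP, and eEF2 moves the ribosome along the mRNA. In neurons, local control of these steps at synapses is known to be needed for lasting memory.

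The question of the TG comparison was which hippocampal transcripts differed between treated and untreated SAMP8 mice. Translation factors past the 1.5-fold limit were all higher with TG: 10 of 64 probe sets were higher and 0 were lower. Over all probe sets, 4.48% were higher and 3.74% were lower. The median difference was 0.095 over the translation factors and 0.01 over all probe sets. A total of 40 translation factors had a difference above 0, 21 had one below 0, and 3 had the same average in both groups, so 62.5% were above 0, beside 50% of all probe sets. The lower and upper quartiles were -0.152 and 0.385 in the translation factors, and -0.19 and 0.20 over all probe sets, so the translation factors stood apart at the upper end.

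The balance depended on the limit. At 1.2-fold, 22 translation factors were higher with TG and 11 lower, beside 19.6% and 18.5% of all probe sets, and at 1.3-fold 17 were higher and 4 lower, beside 12.1% and 11.2%. At 2-fold, 1 was higher and 0 were lower, beside 0.437% and 0.324%. Among the 25% of probe sets with the highest mean signal, 4 of 43 translation factors were higher and 0 lower, and the shares of all probe sets there were 3.87% and 5.51%.

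The 10 probe sets came from 5 of the 7 complexes. They were Eif1b, Eif2b2, Eif2b5, Eif3f, Eif3g, Eif3k, Eif4e1b, Eif4g3, Eif4ebp1 and Eef1b2. In 7 of them the SAMP8 average was below that of SAMR1, but in 8 of them SAMP8 and SAMR1 differed by no more than 0.3, and in 5 by no more than 0.1. Of all 64 translation factors, 25 were lower in SAMP8 than in SAMR1 and 38 differed by no more than 0.3. The quartiles of this strain difference over all probe sets were -0.21 and 0.21, so such closeness was common. With TG, 7 of the 10 also lay more than 1.5-fold above SAMR1. In most panels SAMP8 lay close to SAMR1 and TG-treated SAMP8 apart from both. The 10 were picked by their TG difference from SAMP8, so the distance of the treated group from SAMP8 follows from that choice. Its distance from SAMR1 rests on the same TG averages and is no separate result.

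**Figure D1:**
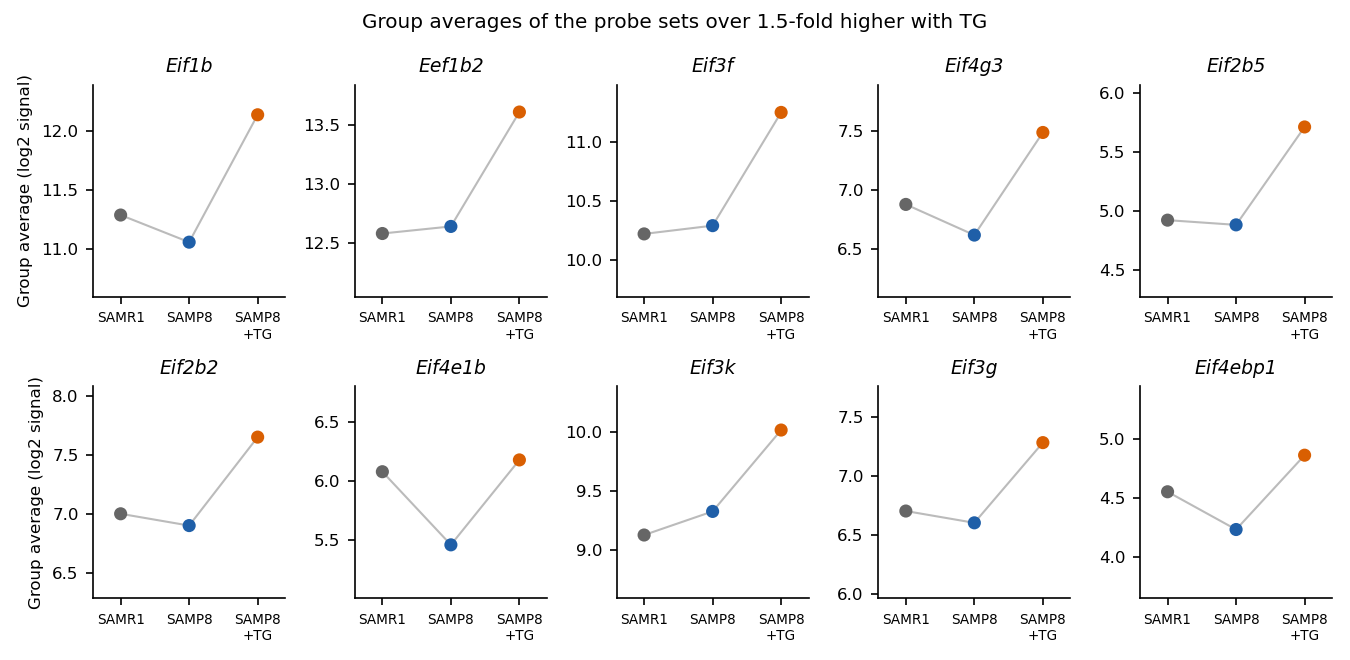
Group averages (log2 signal, authors' values) of the 10 translation factor probe sets that were over 1.5-fold higher in TG-treated SAMP8 than in SAMP8. Each panel spans the same range of 1.8 log2 units, and no error bars are drawn because the averages carry no spread. Eef1b2 was at 12.58, 12.64 and 13.61 from left to right, with the untreated groups side by side, while Eif4e1b was at 6.08, 5.46 and 6.18, with SAMP8 below both other groups.

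The Eif1 group holds the small proteins that keep the scanning ribosome open until a start codon is met, and Eif1ad, counted with the regulators. Eif1b, a close relative of Eif1 (GRCm38, chr9:120492606-120495327), had an average of 11.29 for SAMR1, 11.06 for SAMP8 and 12.14 with TG, and averages are given in this order throughout. Its difference with TG was 1.08, or 2.114-fold, the highest of the translation factors and rank 64 of all 22206 probe sets. Eif1 itself was at 15.10, 14.89 and 15.31, a difference of 0.42 with TG that stayed within the limit. Both averages were highest in the treated group. Eif1a was the opposite case, at 7.92, 8.62 and 8.12, with the lowest TG difference among the translation factors (-0.50). Eif1ax and Eif1ad differed by 0.15 and 0.14.

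The eIF2 subunits and the eIF2B subunits did not show one pattern. All 5 Eif2b probe sets were higher with TG, by 0.02 to 0.83 and with a median of 0.40. Over all probe sets 50% were above 0, with 60.5% for genes of at most 10 kb, 50.7% for 10 to 30 kb and 37.4% over 30 kb. By contrast, 3 of the 4 probe sets of eIF2 subunit genes were lower and their median was -0.105. These 4 count the X- and Y-linked genes of the GTP-binding subunit separately. Eif2b5, the catalytic subunit of the exchange factor, was at 4.92, 4.88 and 5.71, below the median of all probe sets in each group. Eif2b2, a regulatory subunit, was at 7.0, 6.90 and 7.65. For both, SAMR1 and SAMP8 lay within 0.10 of each other and the treated group lay at least 0.65 above either. Eif2b1 had the lowest difference of the complex (0.02).

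Among the eIF2 subunits, Eif2s1, which carries the regulatory phosphorylation site, was at 9.36, 9.69 and 10.07, and it was the only subunit higher with TG (0.38). Eif2s3x, the X-linked gene of the GTP-binding subunit, was at 11.93, 12.27 and 11.88. Eif2s3y, its Y-linked counterpart, was at 10.49, 10.94 and 10.78. TG-treated SAMP8 lay below SAMP8 for both, by 0.39 and 0.16. The 4 kinases that phosphorylate eIF2 were split: Eif2ak3 (PERK, the kinase of endoplasmic reticulum stress) differed by 0.49, Eif2ak2 (PKR, the kinase activated by double-stranded RNA) by -0.48, Eif2ak4 by -0.37 and Eif2ak1 by 0.00. Eif2a and Eif2d, factors of alternative initiation, differed by 0.02 and -0.13.

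Eif3, the largest initiation complex, leaned to higher averages with TG. Of its 14 probe sets 12 were higher with TG, 1 was at the same average (Eif3e) and 1 was lower (Eif3a, -0.05). The median was 0.16. Over all probe sets 50% were above 0, with 60.5% for genes of at most 10 kb, 50.7% for 10 to 30 kb and 37.4% over 30 kb. Within Eif3, Spearman's rho between gene span and TG difference was -0.7, so shorter genes had the higher differences. 3 of the subunits passed the limit. Eif3f (GRCm38, chr7:108934415-108941942) was at 10.22, 10.29 and 11.25, a difference of 0.96. Eif3k was at 9.13, 9.33 and 10.02, a difference of 0.69. Eif3g, a subunit that binds RNA, was at 6.70, 6.60 and 7.28, a difference of 0.68. In all of these the treated group had the highest average. The subunits of the conserved core ring (Eif3a, Eif3c, Eif3e, Eif3f, Eif3h, Eif3k, Eif3l and Eif3m) ran from -0.05 to 0.96, and the outer subunits Eif3b, Eif3d, Eif3g and Eif3i from 0.02 to 0.68.

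The Eif4 group was mixed, with a median of -0.065 and 7 probe sets above 0. Eif4g3, a scaffold that joins the cap-binding protein to the helicase, was at 6.88, 6.62 and 7.49, a difference of 0.87, whereas its relative Eif4g1 was at 13.0, 12.77 and 12.64 (-0.13). Eif4e, the main cap-binding protein, was at 11.95, 11.97 and 12.10. Its averages thus stayed within 0.15 over the 3 groups. Eif4e1b, a relative of Eif4e known from oocytes, was at 6.08, 5.46 and 6.18. The lowest difference among the factors was that of Eif4b (-0.37), a helper of the helicase.

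Of the Eif4 regulators, Eif4ebp1, a repressor that binds Eif4e until mTOR phosphorylates it, was at 4.55, 4.23 and 4.86, a difference of 0.63 with TG at a low signal. It was 0.57, within the limit, when differences were centred within 10 classes of mean signal, which left 9 translation factors over 1.5-fold higher with TG. Eif4ebp2, the form of this repressor that prevails in the brain, was at 6.81, 6.19 and 6.48 (0.29). Both repressors had their lowest average in SAMP8. The probe set shared by Ankhd1 and Eif4ebp3 had the lowest difference (-0.40), and which of its genes the signal came from is uncertain.

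In the Eif5 and Eif6 group no probe set passed the limit with TG, and 3 of 5 were below 0. Eif5a, the factor that helps the ribosome past difficult peptide bonds and carries the modified amino acid hypusine, was at 12.51, 12.96 and 13.06. Eif5a2, its relative, was at 9.37, 9.76 and 9.44. Both had a lower average in SAMR1 than in the other groups. Eif6 had the highest TG difference of the group (0.25) and Eif5b the lowest (-0.35).

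All 6 Eef1 probe sets were higher with TG, by 0.02 to 0.97, with a median of 0.275. Eef1e1 is 1 of the 6 by its symbol only, is counted with the regulators, and differed by 0.09. The median of the other 5 was 0.29. Above 0 were 50% of all probe sets, with 60.5% for genes of at most 10 kb and 50.7% for 10 to 30 kb. Eef1b2, an exchange subunit that reloads eEF1A (GRCm38, chr1:63176831-63180486), was at 12.58, 12.64 and 13.61, a difference of 0.97 or 1.959-fold. The other exchange subunits, Eef1d and Eef1g, differed by 0.44 and 0.29. Eef1a1, the widely expressed tRNA carrier, was at 19.40, 19.38 and 19.40, near the top of the range of averages. A level this high limits what its small difference shows. Eef1a2, the form of neurons and muscle, was at 14.07, 14.32 and 14.58. Eef2 was at 16.89, 17.16 and 16.98, and Eef2k, the kinase that slows elongation by phosphorylating it, was at 9.0, 8.65 and 8.84. SAMP8 thus had the highest Eef2 and the lowest Eef2k average, by less than 0.40 in each case. Eef2kmt had the lowest difference of this group (-0.27).

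**Figure D2:**
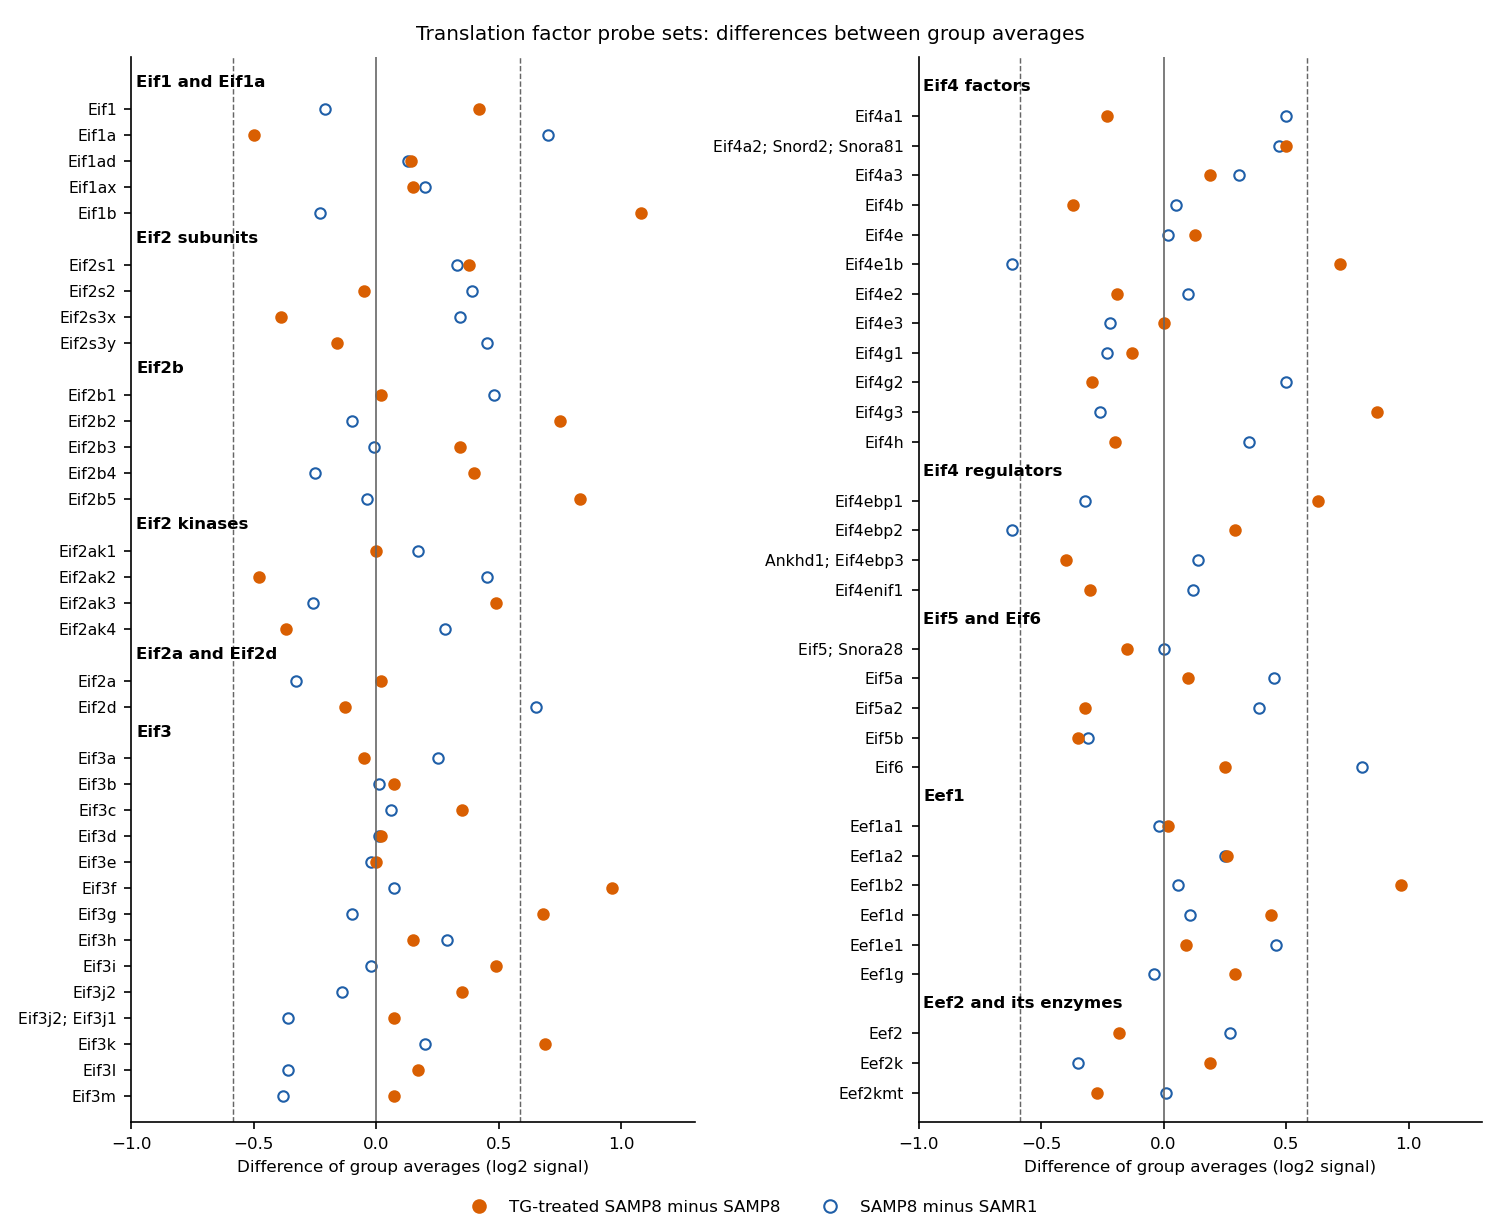
Differences of group averages (log2 signal) of the 64 translation factor probe sets, named by every gene symbol the probe set carries. Filled points are TG-treated SAMP8 minus SAMP8, open points are SAMP8 minus SAMR1, and dashed lines mark 1.5-fold. Filled points of Eif2b, Eif3 and Eef1 lie at or right of 0 except Eif3a at -0.05, and 10 filled points lie beyond the right dashed line and 0 beyond the left one.

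The question of the strain comparison was which transcripts differed between SAMP8 and SAMR1 without TG. Only 3 translation factors were over 1.5-fold higher in SAMP8 and 2 were lower, compared with 5% and 6.08% of all probe sets, so the share of translation factors was near the background on the higher side (4.7%) and below it on the lower side (3.1%). At 1.2-fold, 20 were higher and 9 lower, beside 20.4% and 20.4% of all probe sets, and at 1.3-fold 13 were higher and 3 lower, beside 13% and 13.6%. At 2-fold 0 were higher and 0 lower, beside 0.797% and 1.43%. The median difference was 0.06 over the translation factors and 0.00 over all probe sets. Eif6, which keeps free large ribosomal subunits from joining small ones too early, was at 7.15, 7.96 and 8.21. Its strain difference of 0.81 was the highest. Eif1a followed at 0.70, and Eif2d, at 7.27, 7.92 and 7.79, differed by 0.65. The lower ones were Eif4e1b and Eif4ebp2, each at -0.62. With TG, Eif1a and Eif4e1b lay within 0.20 of SAMR1, while Eif2d and Eif6 were 0.52 and 1.06 above it and Eif4ebp2 was 0.33 below it.

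All 4 probe sets of eIF2 subunit genes were higher in SAMP8, by 0.33 to 0.45, with none past the limit. Over all probe sets 49.5% were above 0 in this comparison, and 66.9% of those with the highest 25% of mean signal. Eif2b1 differed by 0.48, while the other Eif2b subunits ran from -0.25 to -0.01. Eif3 had a median of -0.005 and 0 probe sets past the limit, Eif4 a median of 0.075 and Eef1 one of 0.085. The strain difference depended on signal over the whole array: its median was 0.12 among the 25% of probe sets with the highest mean signal, where most translation factors lie, and 0.07 for the 43 translation factors there. With differences centred within 10 classes of mean signal, 1 translation factor was higher in SAMP8, 1 was lower, and the median was -0.045. With each group centred on its own median, 0 were lower. Beyond this, the part of signal in the strain values was not tested.

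Compared with SAMR1, 10 translation factors were over 1.5-fold higher in TG-treated SAMP8 and 1 was lower, whereas 5.62% and 4.83% of all probe sets were. The median was 0.21 over the translation factors and -0.01 over all probe sets. At 1.2-fold, 28 were higher and 7 lower, beside 20% and 20.5% of all probe sets, at 1.3-fold 21 were higher and 1 lower, beside 13.2% and 13.1%, and at 2-fold 3 were higher and 0 lower, beside 1.12% and 0.684%. This comparison shares its arrays with the other comparisons and is their sum, so it adds no separate evidence. Besides 7 of the probe sets named with TG, it holds 3 others that were within the limit with TG alone. Eif2s1 differed by 0.71 and Eif6 by 1.06. Eif4a2, an RNA helicase that is abundant in the brain, was at 10.70, 11.17 and 11.67, a difference of 0.97, but its probe set also names the small nucleolar RNAs Snord2 and Snora81. Eif5b, which joins the ribosomal subunits, was the one below the limit, at 10.96, 10.65 and 10.30 (-0.66).

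The order of the averages gives the same values in another form. TG-treated SAMP8 had the highest average of the 3 groups in 33 of 64 translation factors (51.6%) and in 31.4% of all probe sets, and SAMR1 had it in 10 (15.6%) and in 34.2%. For Eif3 the treated group was highest in 9 of 14 probe sets and lowest in 0, and for Eef1 it was highest in 5 of 6. For Eif4, SAMP8 was highest in 7 of 16 and the treated group in 6.

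**Figure D3:**
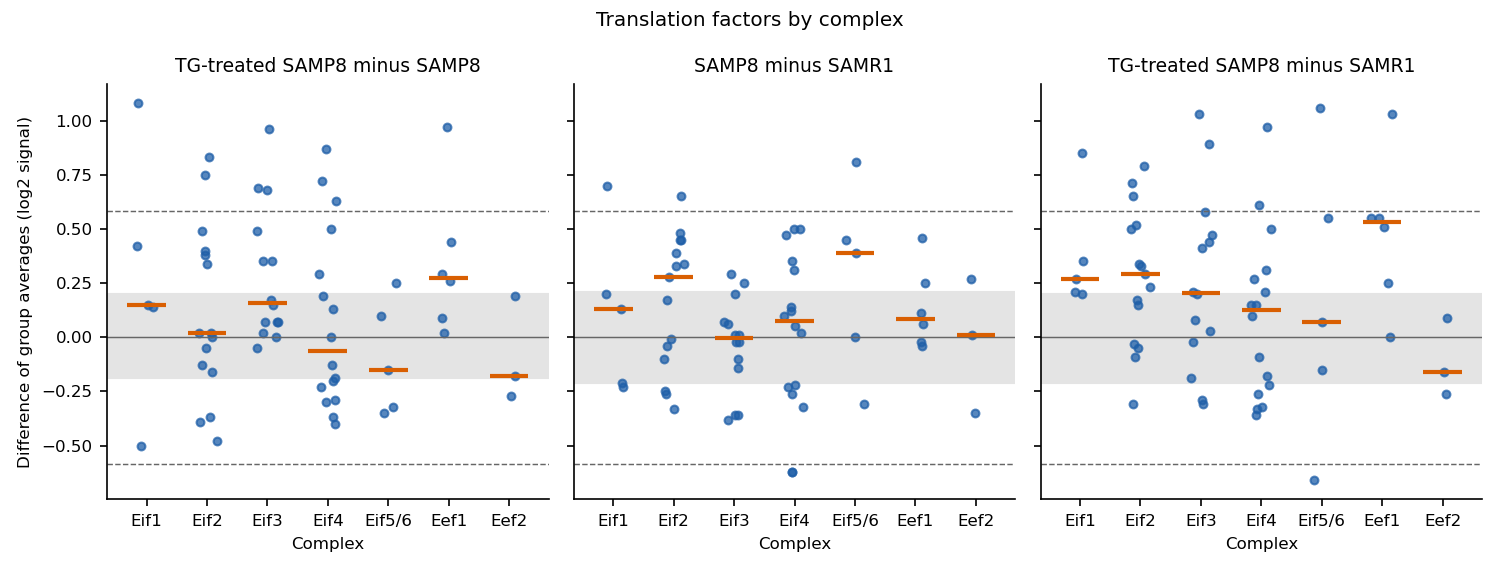
Differences of group averages (log2 signal) by complex for the 3 comparisons. Points are probe sets (shifted sideways at random), orange bars are medians, the grey band runs from the lower to the upper quartile of all 22206 probe sets, and dashed lines mark 1.5-fold. With TG the Eef1 median (0.275) lies above the grey band and the Eif3 median (0.16) inside it, and the Eif2 median is higher in the strain comparison (0.28) than with TG (0.02).

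The length of the gene moved with the TG difference. The 10 probe sets higher with TG had a median gene span of 7.3 kb in the GRCm38 annotation, compared with 19.35 kb in the other translation factors, and 9 of the 10 spanned at most 30 kb. Eif4g3 was the exception, at 215.3 kb. Over all probe sets the median TG difference was 0.07 for genes of at most 10 kb, 0.01 between 10 and 30 kb, and -0.08 over 30 kb. For the translation factors it was 0.375, 0.07 and 0.00 in the same classes. Among genes of at most 30 kb, 9 of 48 translation factors (18.8%) and 5.55% of all probe sets were over 1.5-fold higher with TG, and among longer genes 1 of 16 translation factors and 2.02% of all probe sets were. Spearman's rho between span and TG difference was -0.33 over the 64 translation factors and -0.25 over the 21582 probe sets that could be placed. Within Eif3 it was -0.7. These values describe probe sets measured on the same arrays. The part of gene length in the TG difference was otherwise not tested.

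**Figure D4:**
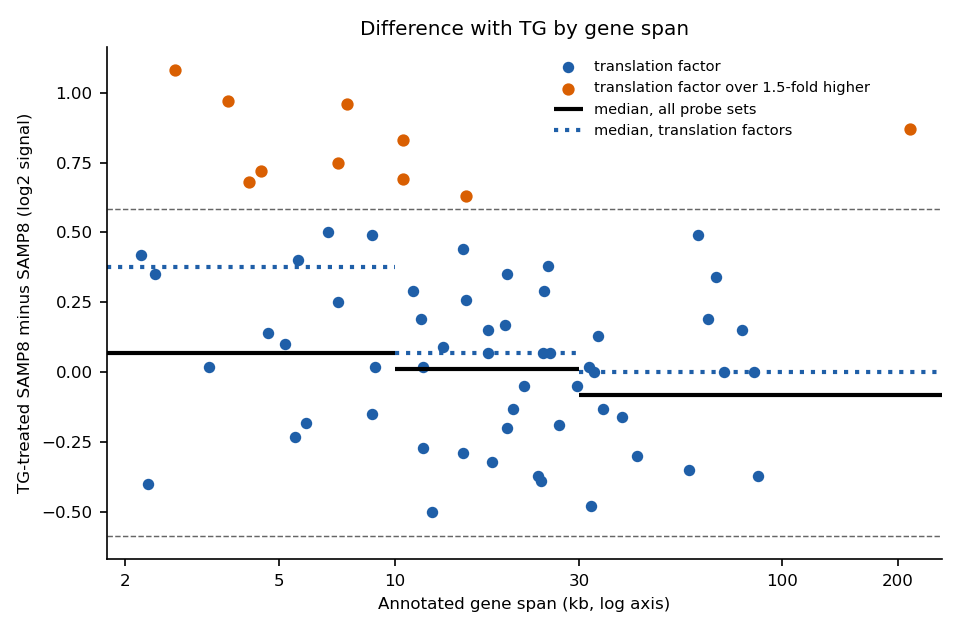
TG difference (log2 signal) of each translation factor probe set against the annotated span of its gene (kb, log axis). Orange points are the 10 probe sets over 1.5-fold higher with TG, black lines are the medians of all probe sets in 3 classes of span, dotted lines are those of the translation factors, and dashed lines mark 1.5-fold. The dotted line lies above the black line in each class, and all orange points but Eif4g3 lie at or below 15.3 kb.

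The other genes of translation did not share one direction. Of 92 cytosolic ribosomal protein probe sets, 48 were over 1.5-fold higher with TG and 0 were lower, beside 4.48% and 3.74% of all probe sets, and the median difference was 0.59. The 7 probe sets of termination and recycling and the 6 of poly(A)-binding proteins had 0 past the limit with TG, with medians of 0.01 and 0.13. The mTOR arm sets the activity of Eif4ebp1 and of the ribosomal kinases. Of its 11 probe sets, 8 were below 0 with TG and 2 (18.2%) above 0, and the median was -0.21. Over all probe sets 50% were above 0, with a median of 0.01. Among the 25% with the highest mean signal 40.4% were above 0, with a median of -0.06. For genes over 30 kb the share was 37.4% and the median -0.08. The list holds both Mtor and its brake Tsc1, so its direction does not give the activity of the arm. The part of signal or gene length was not tested. The genes of these lists that passed the limit were named after their values were seen. Tsc1, a brake on mTOR, was at 10.09, 10.83 and 10.06 and was the only gene of the mTOR arm past the limit with TG (-0.77). In the strain comparison, Tsc1 was higher in SAMP8 by 0.74 and Mknk1, a kinase of Eif4e, by 0.83. Untreated SAMP8 thus lay above both other groups for Tsc1.

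Of the 2 enzymes that make hypusine on Eif5a, Dhps was at 8.64, 8.32 and 8.94 (0.62 with TG) and Dohh differed by 0.11. Of the 8 probe sets of stress response targets, which lie downstream of phosphorylated eIF2, Atf4 alone passed the limit with TG. Atf4, the transcription factor of this response, was at 9.17, 9.80 and 10.51, with each group above the one before. Its target Asns was at 12.57, 13.09 and 12.56, and the list as a whole did not share the pattern of Atf4, with a median of 0.10 with TG and -0.11 between strains. Mitochondrial factors had a median of 0.04 over 9 probe sets, and Mtif2, the mitochondrial initiation factor, was the one past the limit (-0.96). In the strain comparison Tufm and Paip2b were higher by 0.60 each.

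**Figure D5:**
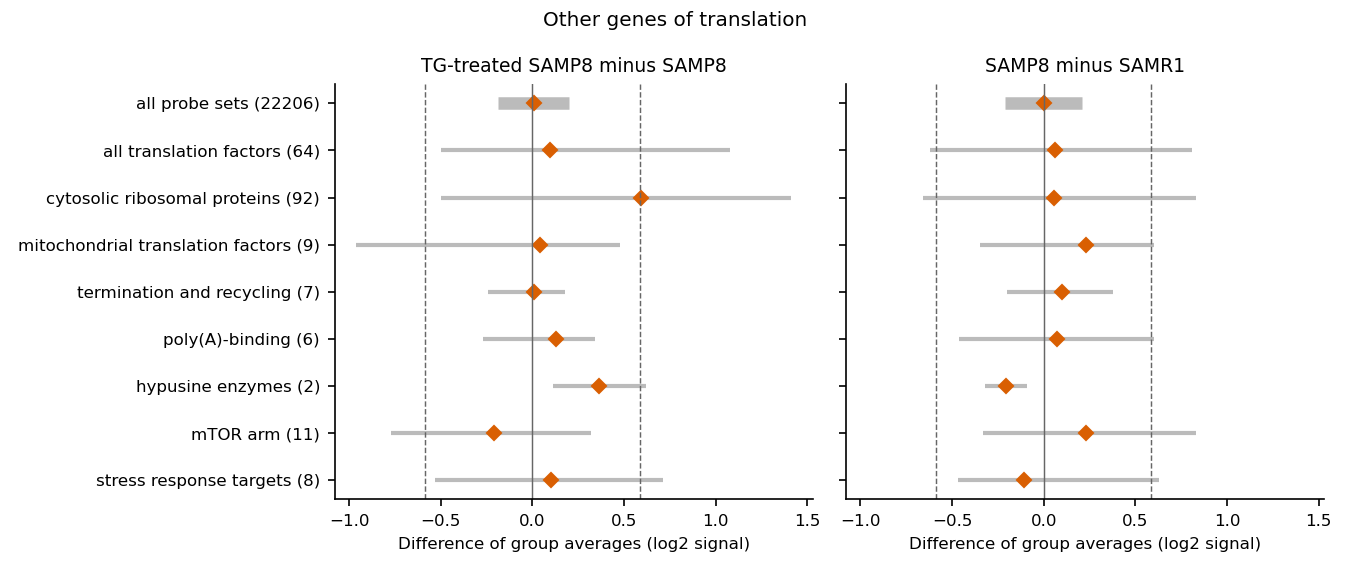
Differences of group averages (log2 signal) for lists of translation genes, with the number of probe sets in brackets. Diamonds are medians, thin bars run from the lowest to the highest member, the thick bar of all probe sets runs from its lower to its upper quartile, and dashed lines mark 1.5-fold. With TG the median of the ribosomal proteins (0.59) lies right of that of the translation factors (0.095), and their bars overlap. The median of the mTOR arm lies left of 0 (-0.21), and its bar crosses 0.

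The tissue label was checked against marker genes. Neuronal genes were high in every group, with Syt1 at 19.70 in all 3. The hippocampal genes varied in level. Neurod6, a marker of pyramidal neurons, was between 14.85 and 14.88. Prox1 was at 11.26, 11.85 and 11.0, Wfs1 at 10.79, 11.23 and 10.75, and Fibcd1 at 8.41, 8.47 and 8.52. Of the markers of the meninges, 4 of 5 were over 1.5-fold lower with TG, beside 3.74% of all probe sets. Their median difference was -1.89, and the median level of the list was 9.39, 10.15 and 7.57. Col1a1, the other one, was at 5.73, 5.73 and 5.86. The marker lists were chosen with earlier results of these data known. The paper names Ptgds and Igf2 of this list, and the thalamus marker Prkcd, among its most downregulated genes with TG. Their lower averages with TG are thus no independent check of the tissue. Of the thalamus markers Prkcd was lower with TG (-1.5), while Lef1 and Tcf7l2 differed by 0.10 and -0.04. Of the markers of hippocampal subfields Prox1, a gene of the dentate gyrus, was lower (-0.85), while Wfs1 differed by -0.48, Fibcd1 by 0.05 and Neurod6 by 0.03. The neuronal genes Syt1, Slc17a7 and Snap25 lay near the top of the range of averages, which limits what their stability shows, and Rbfox3, at 11.45, 11.56 and 11.77, differed by 0.21. In the choroid plexus list Ttr was higher (0.72) and Kl lower (-0.79), and 0 markers of astrocytes, oligodendrocytes, microglia, endothelium or striatum passed the limit with TG. In the strain comparison, where 5% of all probe sets were over 1.5-fold higher in SAMP8, the markers that were higher were 2 of 3 for astrocytes, 2 of 5 for meninges (Igf2 by 1.58 and Ptgds by 0.87), 2 of 4 for choroid plexus, 1 of 3 each for microglia, endothelium and thalamus, and 1 of 4 for hippocampal subfields. Kcne2 of the choroid plexus list was lower (-0.84). The part of tissue composition in the translation factor values was not tested.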

How the data were processed

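Hippocampal RNA was hybridized to Clariom S Mouse arrays, 3 per group by the sample records. The authors summarized the intensities by SST-RMA in Transcriptome Analysis Console and deposited, for each of 2 comparisons, the log2 group averages. How the 3 arrays were averaged is not given in the sources used here. The tables also hold the authors' fold change, p-value and false discovery rate, which were not used. Values per array were not used here, so no spread between mice was computed. The number of arrays limits the precision.

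The SAMP8 column was identical in both tables, so the tables were joined by probe set. Differences of averages were computed with pandas 2.3.3 and numpy 2.4.6 in Python 3.11.15 and counted past 1.5-fold, without a filter on low values. The counting was checked on simulated shifts far past the limit, which says nothing of calls near it. Gene spans came from the RefSeq annotation of GRCm38.p6. All 64 translation factors and 97.2% of all probe sets were placed. Where a probe set names several genes, a gene on the chromosome of its identifier was used. For the 4 translation factors among these only the Eif symbols were considered. The probe set shared by Ankhd1 and Eif4ebp3 thus entered with the span of Eif4ebp3 (2.3 kb).

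Within each complex, the text names members past 1.5-fold in a deposited comparison (at most 5), those with the highest and lowest TG difference, and a set chosen by name (Eef1a1, Eef1a2, Eef1b2, Eef2, Eef2k, Eif4e, Eif4ebp1, Eif4ebp2, Eif2s1, Eif2s3x, Eif2s3y, Eif5a and Eif5a2). Further members (such as Eif1, Eif4g1, Eef1d, Eef1g and the other eIF2 kinases) are named beside their relatives and were chosen after their values were seen. Members and lists were chosen with earlier results of these data known. Markers and lists of translation genes were taken by symbol. Alternatives were other fold limits, median centring, leaving out the 25% of lowest mean signal, 1 value per gene, leaving out probe sets of several genes, and structural factors only. Classes of gene span and centring within 10 classes of mean signal were added after seeing the data.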

Additional observations from a re-analysis of the deposited data

How the results depend on the processing

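The group averages hold no spread, so no replicate could be left out and no value is given with an error. No paired analysis was possible because the tables used hold group averages and no values per array. The counts followed the fold limit. With TG, 22, 17 and 1 probe sets were higher at 1.2-, 1.3- and 2-fold, and 11 were lower at 1.2-fold and 4 at 1.3-fold. In the strain comparison 20, 13 and 0 were higher at these limits, and 9 were lower at 1.2-fold and 0 at 2-fold. Compared with SAMR1, TG-treated SAMP8 had 28, 21 and 3 higher, with 7 lower at 1.2-fold and 0 at 2-fold. Median centring left 0 lower in the strain comparison, and structural factors alone left 1. Centring within 10 classes of mean signal left 1 higher and 1 lower there, and turned the strain medians of all translation factors to -0.045, of Eif3 to -0.115, of Eif4 to -0.05 and of Eef1 to -0.025, with Eif2 at 0.14. For genes over 30 kb, 1 probe set was higher in each of the 3 comparisons and 0 were lower in the strain comparison. For genes of at most 30 kb, 0 were lower than SAMR1 with TG. The Eif2 median was 0.38 with TG and 0.50 over SAMR1 for genes of at most 30 kb. For genes over 30 kb, the Eif4 median was 0.065 with TG, -0.10 between strains and -0.015 over SAMR1, the Eif3 median between strains was 0.135, and the median of all translation factors over SAMR1 was 0.065. These classes hold fewer probe sets. Otherwise the cause of these shifts was not tested. None of the 15 differences of named genes changed sign under the 30 alternatives run for them, and 6 of the 30 values were no longer past 1.5-fold. Under centring within 10 classes of mean signal these were Eif4ebp1 with TG (0.57, leaving 9 probe sets higher) and Eif1a (0.56), Eif2d (0.57) and Eif4e1b (-0.55) between strains, and under median centring Eif4e1b and Eif4ebp2 between strains (-0.57 each).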
